A study of Mus musculus with 7 samples.

Results

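Mitosis and G2/M genes were followed in mouse precision-cut liver slices (PCLS), thin discs of living liver kept in culture, with and without valproic acid (VPA), a histone deacetylase inhibitor. The 53 members of this group were listed by symbol: cyclins, CDK1 and its regulators, mitotic kinases, spindle checkpoint and anaphase genes, the chromosomal passenger complex, centromere and kinetochore genes, kinesins and other spindle genes, cytokinesis genes, chromosome structure genes and transcription factors of the G2/M program. Each symbol was matched to an Ensembl gene in GENCODE M21 (GRCm38), and all 53 were found among the 55487 genes counted. The slices came from healthy, otherwise untreated adult male Balb/c mice of a range of ages, and the labels do not give the age behind each library. After 3 days in culture, 3 control libraries (CTR, medium without VPA) and 4 VPA libraries (2.5 mM in the medium) were made from whole slices, so every value is an average over all cell types of the slice. The titles give 3 CTR and 3 VPA libraries the same slice culture numbers in pairs, without saying what the number marks. The study's methods call a different liver a biological repeat, but neither they nor the labels tie each library to an animal, so p-values measure the spread between these libraries, which may in part be technical.

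A cell entering mitosis activates CDK1 with its cyclin partners, condenses its chromosomes, attaches them to spindle microtubules through kinetochores and, once the spindle checkpoint is satisfied, destroys cyclins and securin to separate the chromatids. Most of these genes are transcribed in a late wave that peaks in G2 and M, under the MuvB complex with B-MYB and FOXM1. Adult liver in the body divides little, and its cells return to the cycle after injury.

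The libraries held 1400887 to 4773750 counts on genes. Values are given as CPM, a gene's counts scaled to 1000000 counts on genes. The libraries were read from the 3′ end of the transcript, so a gene's counts do not grow with its length and CPM can be set side by side between genes. A library with 0 counts of a gene could still hold up to 3, a floor of 0.628 CPM in the deepest library and 2.14 CPM in the shallowest. This floor covers counting error only, since reads amplified by PCR without molecular identifiers are not independent molecules. Counts of 0 also occurred where many more were expected, as the other 6 libraries show. Of genes whose lowest CPM in those predicted at least 10 counts, 0.229 to 0.658% were at 0 in a CTR library and 1.51 to 5.33% in a VPA library, most in VPA replicate 1, a comparison added after the data were seen. The gene Tubg1, for γ-tubulin, had 49 to 151 counts in 6 libraries and 0 in VPA replicate 3, an example chosen after its values were seen. The fold bounds given below cover counting error in VPA only, not such zeros or the spread of the CTR libraries, whose mean they use. VPA libraries also listed fewer genes of any kind, 14359 to 16761 with a count against 17744 to 19756 in CTR. Mitochondrially encoded genes took 14.5 to 27.7% of the counts in CTR and 23.9 to 32.5% in VPA. The part of these measures in the results on the mitosis genes was not tested.

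Counts on the mitosis and G2/M genes were lower with VPA. Summed over all 53 members, they came to 552, 790 and 557 CPM in the CTR libraries and 458, 323, 298 and 316 CPM in the VPA libraries. The highest VPA library was thus below the lowest CTR library, with a mean of 349 ± 73.6 (SD, n = 4) against 633 ± 136 (SD, n = 3) and a ratio of 0.550. Smc4, Smc2 and Bub3, the members of highest mean CPM, made up 34.1 to 37.6% of the sum in CTR and 47.7 to 59.7% in VPA. Without these 3, the sum was 362, 521 and 348 CPM in CTR and 229, 169, 120 and 131 CPM in VPA, a ratio of 0.395. The sum of the 3 alone overlapped between the groups, at 191, 269 and 209 CPM in CTR and 229, 154, 178 and 185 CPM in VPA. The difference in the sum therefore lay mainly in the members of lower expression. In bulk tissue, fewer cells of a type and less RNA per cell cannot be told apart.

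**Figure D1:**
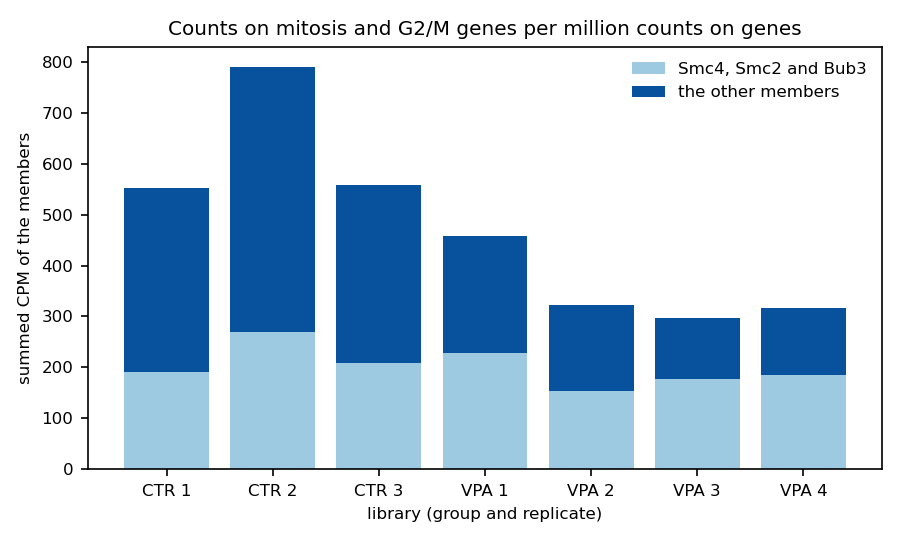
Summed CPM of the 53 mitosis and G2/M genes (y axis) in each library (x axis), with Smc4, Smc2 and Bub3 in light blue and the remaining members in dark blue. The CTR bars reach 552 to 790 CPM and the VPA bars 298 to 458 CPM, and the dark part differs more than the light part.

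The number of members with any count differed too. In CTR, 41, 45 and 38 of the 53 members had a count, and in VPA 23, 23, 24 and 25. Brought to the depth of the smallest library, the expected numbers were 37.9 to 44.4 in CTR and 22.1 to 24.9 in VPA, so the gap was as wide at equal depth. This correction does not cover the zeros described above, which were commoner in VPA, and their part in the gap was not tested. Of the 53 members, 4 (Bub1, Aurkb, Kif4 and Kif20a) had no count anywhere and 1 (Kif2c) had fewer than 10 counts in all. Among the other 48 members, every VPA value was below every CTR value for 14 (29.2%, against 7.89% of the 18262 genes with at least 10 counts), and none lay above (2.29% of all genes). Those 14 were Smc2, Top2a, Ccna2, Mki67, Cenpv, Cenpf, Cenpe, Racgap1, Kif23, Ube2c, Ttk, Aurka, Ccnb1 and Cdca3. None of the 48 was at 0 in every CTR library (1.88% of all genes), whereas 12 of them (25%) were at 0 in every VPA library, against 5.07% of all genes. The VPA mean was below the CTR mean for 39 of the 48, against 56% of all genes.

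These shares depend on a gene's total count, so they were also read among genes of similar total count, a comparison added after the data were seen. Among members with 10 to 99 counts, 7 of 27 (25.9%) lay lower in all VPA libraries, against 5.20% of genes in that range, and 11 (40.7%) were at 0 in all VPA libraries, against 11%. In the next decade of counts, starting at 100, 6 of 19 (31.6%) lay lower without overlap, against 7.94%.

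**Figure D2:**
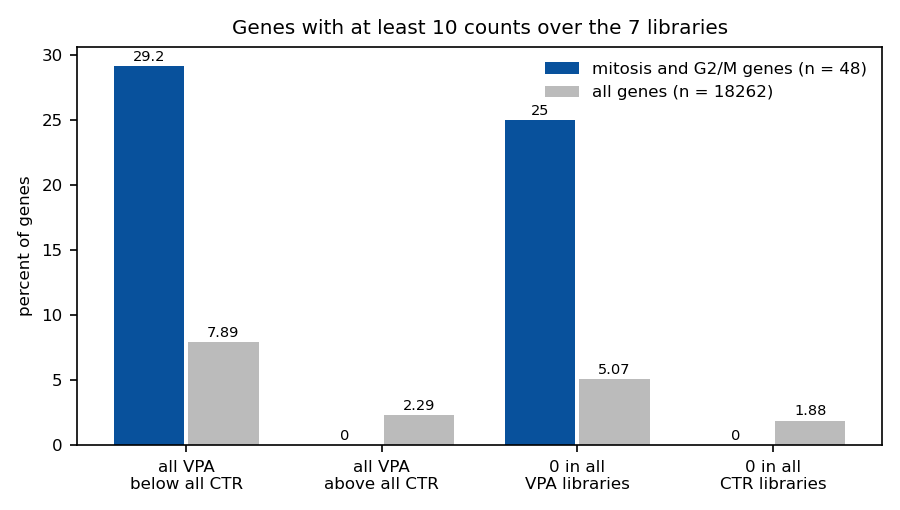
Percent of genes (y axis) whose VPA libraries all lay below or all above the CTR libraries, or that were at 0 in all libraries of 1 group, for the 48 mitosis and G2/M genes (blue) and the 18262 genes (grey) with at least 10 counts. The blue bars stand at 29.2 and 25% for lower and for absent in VPA, over grey bars of 7.89 and 5.07%, and at 0 in the opposite direction.

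In a test of each gene, 23 members passed the filter on low counts and 30 did not. Members could pass on the counts of 1 group alone, so the values of the 23 describe only those genes. With edgeR's quasi-likelihood test and Benjamini-Hochberg adjustment over the 10876 genes tested, 0 members passed an adjusted p of 0.05 in either direction, against 0% of all genes lower and 0.00919% higher. At an unadjusted p under 0.05 in edgeR, 5 members were lower and 0 higher, against 4.62% and 3.65% of all genes, and the 5 were Cenpv, Top2a, Smc2, Mki67 and Cenpf. DESeq2, run as the alternative, called 3 members lower (Cenpv, Top2a and Ube2c) and 0 higher, out of 36 members with an adjusted p, against 0.754% and 0.256% of all genes. The fitted log2 fold change was negative for 16 of the 23, against 54.2% of all genes tested, with a median of −1.08 against −0.06. This median depended on single libraries, and it was −0.57 without CTR replicate 2. With slice culture number as a replicate block it was −1.52, again with 0 members called. Birc5, Ccnf and Anln then had fitted log2 fold changes of −0.53, −0.15 and −0.73 in place of 0.40, 1.37 and 0.21. In that fit VPA replicate 1, whose number no CTR library shares, has a term of its own and so leaves the comparison. With that library left out and no block, these genes were at −0.67, 0.63 and −0.57.

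**Figure D3:**
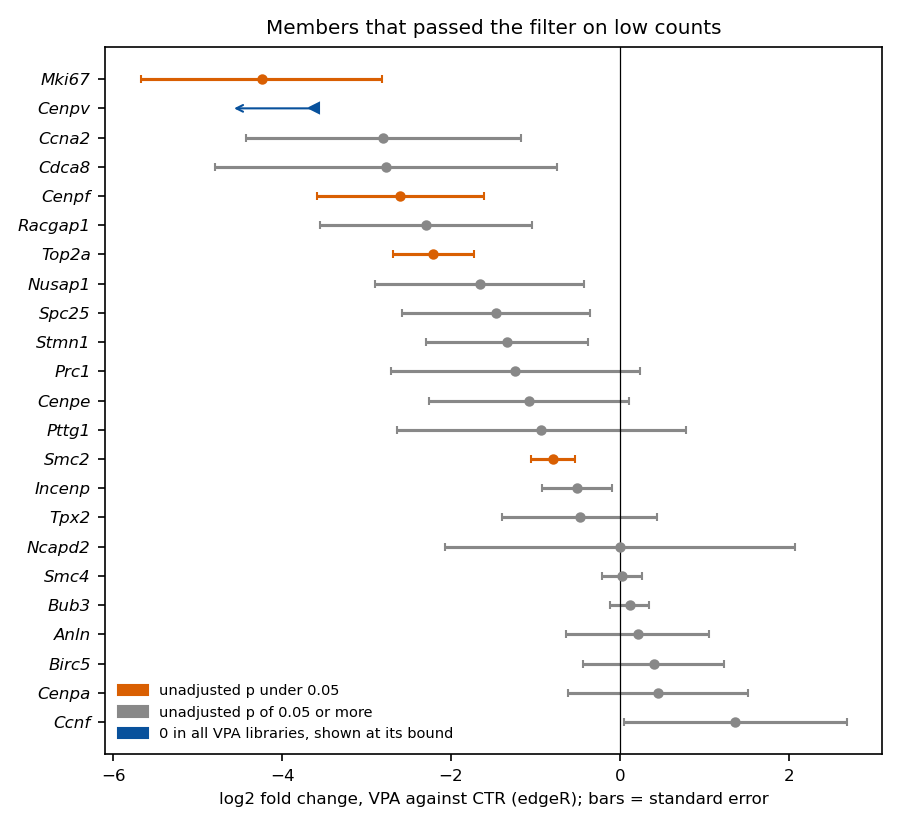
Log2 fold change of VPA against CTR (x axis, edgeR, bars are standard errors) for the 23 members that passed the filter on low counts (y axis). Mki67, Cenpf, Top2a and Smc2 (orange) had an unadjusted p under 0.05, as had Cenpv, which was at 0 in all VPA libraries and is drawn in blue at its bound of 12.3-fold with an arrow.

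Promoter sequences are shown because these genes are known to share a pair of short elements near their start: the cell cycle genes homology region (CHR), which recruits MuvB, and the CCAAT box, which binds NF-Y. In RefSeq windows running from 250 bases before to 50 after the start (GRCm38.p6), TTTGAA or TTTAAA was searched for CHR and CCAAT for the box, on both strands. The table held 46 promoters of 43 members, of which 36 (78.3%) had a CHR, 35 (76.1%) a CCAAT box and 32 (69.6%) both. Among all 32851 promoters the shares were 27.6%, 37.4% and 10.7%. Counted by gene, 29 of the 43 members (67.4%) had both, against 12.2% of all genes. Of the 14 members whose groups did not overlap, 13 were in the table and 12 had both, also by gene. Whether the motifs go with the difference between the groups was not tested. A match is a description of the letters, not a bound site. Below are 4 promoters, 5′ to 3′ on the gene's strand with both motifs in capitals, those among the 12 members of highest mean CPM with a motif nearest the start.
Top2a (chr11:99024140-99024439, minus strand): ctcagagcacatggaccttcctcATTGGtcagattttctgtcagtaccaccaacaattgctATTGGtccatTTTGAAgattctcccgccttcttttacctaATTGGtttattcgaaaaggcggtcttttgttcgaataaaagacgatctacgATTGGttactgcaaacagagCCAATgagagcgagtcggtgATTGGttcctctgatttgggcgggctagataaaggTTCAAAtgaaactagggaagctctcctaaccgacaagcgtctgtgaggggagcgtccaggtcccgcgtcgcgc
Smc2 (chr4:52438971-52439270, plus strand): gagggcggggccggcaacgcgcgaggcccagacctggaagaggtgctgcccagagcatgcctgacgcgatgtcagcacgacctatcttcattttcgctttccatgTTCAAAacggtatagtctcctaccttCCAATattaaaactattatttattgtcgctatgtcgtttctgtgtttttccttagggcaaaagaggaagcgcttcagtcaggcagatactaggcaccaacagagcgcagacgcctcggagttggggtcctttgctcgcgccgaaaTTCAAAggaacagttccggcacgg
Spc25 (chr2:69206164-69206463, minus strand): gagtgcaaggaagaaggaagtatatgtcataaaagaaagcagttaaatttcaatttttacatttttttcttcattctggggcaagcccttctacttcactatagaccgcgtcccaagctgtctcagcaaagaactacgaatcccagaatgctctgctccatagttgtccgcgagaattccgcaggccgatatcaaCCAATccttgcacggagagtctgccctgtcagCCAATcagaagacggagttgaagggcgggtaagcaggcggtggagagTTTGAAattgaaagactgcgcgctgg
Ccnf (chr17:24251360-24251659, minus strand): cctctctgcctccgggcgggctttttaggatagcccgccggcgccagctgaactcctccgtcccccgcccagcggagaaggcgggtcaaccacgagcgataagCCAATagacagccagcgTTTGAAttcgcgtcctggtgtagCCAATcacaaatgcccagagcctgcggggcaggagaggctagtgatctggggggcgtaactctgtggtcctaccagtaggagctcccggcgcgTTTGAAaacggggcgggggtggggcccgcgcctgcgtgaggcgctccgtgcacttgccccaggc

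In these windows, the motif nearest the start ended 18 bases before it in Top2a, 9 before it in Ccnf and 19 before it in Spc25, and lay 26 bases after it in Smc2. All 4 promoters hold both motifs. Top2a and Smc2 lay lower in every VPA library, while the values of Spc25 and Ccnf overlapped between the groups. The fitted log2 fold changes were −2.21, −0.79, −1.47 and 1.37 in that order. That of Spc25 ranged from −1.90 to −0.56 as each library was left out, and was −0.56 without CTR replicate 2. The promoters of Cenpv and Pttg1 in the table held neither motif.

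Chromosome structure genes held the most counts. Top2a (ENSMUSG00000020914, chromosome 11, 98992943 to 99024189, minus strand), topoisomerase II alpha that untangles chromatids, was at 44.5, 58.2 and 37.3 CPM in CTR and 3.96, 15.8, 12.1 and 6.20 CPM in VPA. Every VPA library was well below every CTR library, and the group means were 46.7 and 9.52 CPM. The log2 fold change was −2.21 (SE 0.483), with an adjusted p of 0.289 in edgeR and 0.0131 in DESeq2. Leaving out each library in turn moved it between −2.51 and −1.94. The exact permutation test of its CPM gave p = 0.0286 (two-sided), the smallest that 3 against 4 libraries allow.

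Mki67 (ENSMUSG00000031004, chromosome 7, minus strand), which encodes the Ki-67 protein that coats mitotic chromosomes and is the usual marker of cycling cells, was at 21.9, 15.1 and 29.2 CPM in CTR. In VPA it was at 4.62 CPM in replicate 1 and at 0 in the other 3 libraries. The groups did not overlap, with means of 22.1 ± 7.08 (SD, n = 3) and 1.15 ± 2.31 (SD, n = 4) CPM. Its log2 fold change was −4.24 (SE 1.43) with an adjusted p of 0.503 in edgeR and 0.158 in DESeq2. Without VPA replicate 1 all remaining VPA values were 0 and the adjusted p in edgeR was 0.200. With any other library left out it was 0.435 to 0.9998.

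The condensin subunits, which compact mitotic chromosomes, did not move alike. Smc2, an ATPase of condensins I and II, was at 68.6, 105 and 61.4 CPM in CTR and 52.1, 32.9, 45.7 and 41.3 CPM in VPA, without overlap. Its log2 fold change was −0.79 (SE 0.262), with an adjusted p of 0.487 in edgeR. Its partner ATPase Smc4 stood at 77.7, 97.8 and 90.6 CPM in CTR and 119, 63.5, 89.9 and 70.9 CPM in VPA. The Smc4 groups overlapped fully, with a log2 fold change of 0.03 (SE 0.241) whose sign depended on the settings. Of the regulatory subunits, Ncaph was at 3.28, 2.09 and 0 CPM and Ncapg at 0, 4.61 and 0 CPM in CTR, and both were at 0 in all VPA libraries. Ncapd2 was listed in 1 CTR library and 3 VPA libraries, at up to 17.2 CPM.

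**Figure D4:**
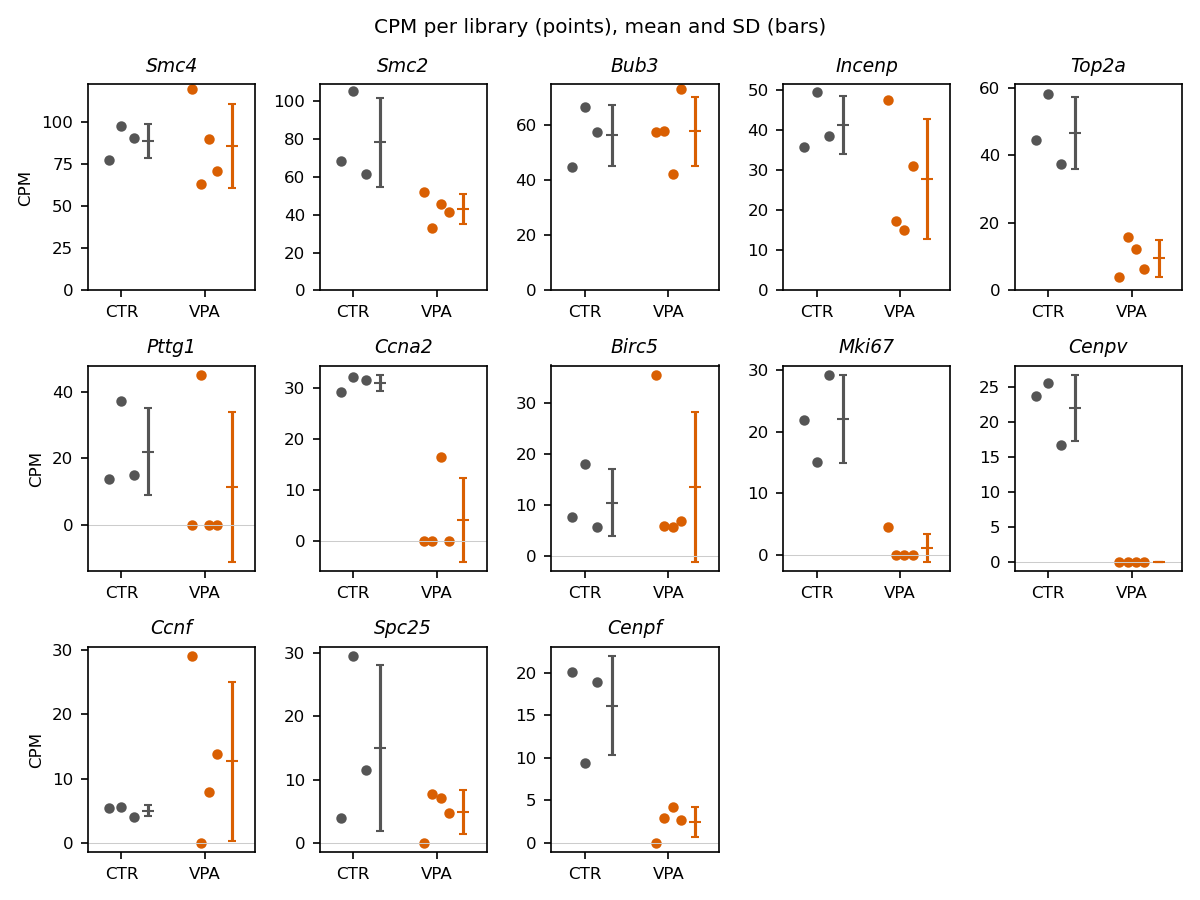
CPM of 13 members (y axes, 1 panel a gene) in the 3 CTR (grey) and 4 VPA (orange) libraries, with the mean and SD beside the points. The panels show the 12 members of highest mean CPM and Cenpf, and Top2a, Ccna2, Mki67, Cenpv, Cenpf and Smc2 separate without overlap while Smc4 and Bub3 do not.

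At the centromere and kinetochore, Cenpv had counts in every CTR library and in no VPA library. This gene (ENSMUSG00000018509, chromosome 11, 62524946 to 62539261, minus strand) encodes centromere protein V, which takes part in centromere organization and cytokinesis. It was at 23.7, 25.6 and 16.6 CPM in CTR and had 0 counts in all 4 VPA libraries, at least 12.3-fold lower by counting error when set against the mean VPA floor of 3 counts a library. Its adjusted p was 0.154 in edgeR and 2.3e-06 in DESeq2. The edgeR value ranged from 0.137 to 0.890 as each library was left out.

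Cenpf, a kinetochore protein that accumulates in G2, was at 20.1, 9.43 and 18.9 CPM in CTR and 0, 2.90, 4.28 and 2.75 CPM in VPA. All VPA libraries were below all CTR libraries, with a log2 fold change of −2.60 (SE 0.985) and an adjusted p of 0.555 in edgeR. Cenpe, the kinetochore motor, separated as well, by a narrow margin, at 10.1 to 13.2 CPM in CTR and 0 to 9.64 CPM in VPA. The subunits of the NDC80 complex, which grips the microtubule, overlapped between the groups. Spc25 was at 4.01, 29.5 and 11.5 CPM in CTR and 0, 7.74, 7.14 and 4.82 CPM in VPA, while Ndc80 ranged from 2.30 to 4.74 CPM in CTR and stood at 22.4, 0, 6.42 and 1.38 CPM in VPA. Nuf2 had a mean of 2.25 CPM in CTR and 0.357 CPM in VPA, and Spc24 of 1.5 and 0.747 CPM, all near the floor. The VPA mean was thus below the CTR mean for Spc25, Nuf2 and Spc24 and above it for Ndc80, whose highest value was in VPA replicate 1. The centromeric histone Cenpa overlapped, at 1.15 to 7.12 CPM in CTR and 1.32 to 7.74 CPM in VPA. Summed over these 8 genes, CTR was at 75.7 ± 14.4 CPM (SD, n = 3) and VPA at 25.9 ± 5.98 CPM (SD, n = 4), without overlap.

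Among the cyclins and entry regulators, Ccna2, the A-type cyclin of S and G2, was nearly even in CTR at 29.2, 32.3 and 31.5 CPM. In VPA it was at 16.4 CPM in replicate 3 and at 0 in the others. The groups did not overlap, yet the log2 fold change of −2.80 had an SE of 1.63, with an adjusted p of 0.744 in edgeR. The exact permutation test gave p = 0.0571. Without VPA replicate 3 all remaining VPA values were 0 and the adjusted p in edgeR was 0.106. With any other library left out, the adjusted p was 0.728 to 0.9998 and the log2 fold change −2.82 to −2.33. Ccnb1, the B-type cyclin that activates CDK1, was at 3.28, 1.68 and 2.87 CPM in CTR and at 0 in all VPA libraries, at least 1.46-fold lower. Cdca3, which helps to trigger mitotic entry, was at 2.55, 1.68 and 2.29 CPM in CTR and also at 0 in VPA, at least 1.22-fold lower. These low levels left little room above the floor. The 1.68 CPM of both in CTR replicate 2 was under the floors of VPA replicates 1, 3 and 4 (1.98, 2.14 and 2.07 CPM).

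The other entry genes did not separate. Ccnf, an F-box protein that lowers ribonucleotide reductase and other substrates in G2, was at 5.47, 5.66 and 4.01 CPM in CTR and 29.0, 0, 7.85 and 13.8 CPM in VPA, the reverse order in 3 of the 4 VPA libraries. Its log2 fold change was 1.37 (SE 1.32), with an adjusted p of 0.904 in edgeR. It was 1.80 without VPA replicate 2 and 0.63 without VPA replicate 1, with adjusted p of 0.568 and 0.961 in edgeR. Cdk1, the central mitotic kinase, was at 2.55, 0 and 5.16 CPM in CTR and 9.89, 8.70, 0 and 0 CPM in VPA, so the groups overlapped. Ccnb2, the second B-type cyclin, was at 2.87 to 7.12 CPM in CTR and was listed in 1 VPA library, at 5.28 CPM. Cdc25b and Cdc25c, the phosphatases that activate CDK1, stayed at or under 3.44 CPM in every library. The 8 genes summed to 49.1 ± 0.432 CPM in CTR (SD, n = 3) and 24.8 ± 16.0 CPM in VPA (SD, n = 4).

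Among the members, Plk1, Aurka and Nek2 are mitotic kinases with counts in CTR and 0 in every VPA library. Plk1, the polo-like kinase of entry, centrosome maturation and cytokinesis, was at 4.74, 13.2 and 0 CPM in CTR. Aurka, the Aurora kinase of centrosomes and spindle poles, was at 2.92, 7.33 and 2.87 CPM. Nek2, a centrosome kinase, was at 0, 2.72 and 0 CPM. With 0 counts in VPA, Aurka was at least 2.45-fold lower, and Nek2 was too low for a bound. Plk1 had a bound of 3.34-fold, from a CTR mean that includes a library at 0. Aurka alone of the 3 was above every VPA library in each CTR library.

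In the spindle checkpoint and anaphase group, the most abundant gene overlapped between the groups. Bub3, a checkpoint protein that also acts outside mitosis, was at 44.5, 66.4 and 57.4 CPM in CTR and 57.4, 57.7, 42.1 and 73 CPM in VPA, with a log2 fold change of 0.12 (SE 0.230) of unsteady sign. Ube2c, the ubiquitin-conjugating enzyme of the anaphase-promoting complex, was at 4.38, 10.5 and 8.03 CPM in CTR and at 0 in all VPA libraries, at least 4.26-fold lower. It did not pass edgeR's filter, and its adjusted p in DESeq2 was 0.0375. Ttk, the checkpoint kinase MPS1, was at 7.29, 9.01 and 2.87 CPM in CTR and 1.32, 0, 0 and 0 CPM in VPA, without overlap.

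Pttg1, or securin, the inhibitor of separase, showed the widest spread of the group. It was at 13.9, 37.3 and 14.9 CPM in CTR and at 45.1 CPM in VPA replicate 2, with 0 in the other 3 VPA libraries. The groups overlapped because of that library, without which all remaining VPA values were 0. Bub1b, the checkpoint protein BUBR1, was at 4.38, 8.80 and 0 CPM in CTR and at 0 in VPA. Its bound was 2.46-fold, from a CTR mean that includes a library at 0. Cdc20, the activator of the anaphase-promoting complex, was at 2.92, 9.01 and 0 CPM in CTR and was listed in 1 VPA library at 2.07 CPM. Mad2l1, the checkpoint protein MAD2, overlapped at 1.89 to 6.20 CPM in CTR and 0 to 7.09 CPM in VPA.

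Members of the chromosomal passenger complex, which corrects attachments and guides cytokinesis, overlapped between the groups. Incenp, the scaffold, was at 35.7, 49.4 and 38.4 CPM in CTR and 47.5, 17.4, 15 and 31.0 CPM in VPA, where replicate 1 alone reached CTR levels. Its log2 fold change was −0.51 (SE 0.413), with an adjusted p of 0.871 in edgeR. Birc5, or survivin, was at 7.66, 18.0 and 5.74 CPM in CTR and 35.6, 5.80, 5.71 and 6.88 CPM in VPA, again with replicate 1 apart from the rest. Cdca8, or borealin, was at 0, 25.6 and 11.5 CPM in CTR and was listed in 1 VPA library at 6.42 CPM. The catalytic subunit Aurkb had no count in any library, so its level could not be compared.

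Kinesins and spindle genes gave a narrow sum in CTR, 57.7 ± 1.08 CPM (SD, n = 3), and a lower one in VPA, 24.0 ± 6.30 CPM (SD, n = 4). Most single members overlapped. Tpx2, which activates Aurora A on the spindle, ranged from 8.60 to 11.7 CPM in CTR and from 0.714 to 13.2 CPM in VPA. Stmn1, a microtubule destabilizer found in other cells too, ranged from 4.61 to 17.2 and from 0.660 to 10.3 CPM. Nusap1, a spindle-binding protein, ranged from 5.74 to 16.0 and from 0 to 8.58 CPM, and Prc1, the crosslinker of the central spindle, from 7.66 to 11.5 and from 0 to 8.26 CPM. Kif23, the kinesin of the central spindle, was the member of this set without overlap, at 3.44 to 10.1 CPM in CTR and 0 to 2.26 CPM in VPA. Hmmr, a spindle and hyaluronan-binding protein, and Kif11, the kinesin that pushes the poles apart, stayed at or under 5.87 CPM everywhere and overlapped. Kif2c, a depolymerizing kinesin, was listed in CTR replicate 3 alone, with 8 counts.

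In cytokinesis, Racgap1, the partner of Kif23 in the centralspindlin complex, was at 6.93, 8.80 and 9.18 CPM in CTR and 1.98, 4.19, 0 and 0 CPM in VPA. Both centralspindlin genes thus lay lower in every VPA library. Racgap1 had a log2 fold change of −2.30 (SE 1.25), with an adjusted p of 0.716 in edgeR. Leaving out each library in turn moved the fold change between −3.45 and −1.93. Anln, which scaffolds the contractile ring, overlapped at 5.16 to 10.5 CPM in CTR and 1.93 to 22.4 CPM in VPA. Ect2, a guanine nucleotide exchange factor of cytokinesis, was listed in CTR replicate 1 alone, at 4.38 CPM.

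The transcription factors were low, and near the floor or at 0 in several libraries. Foxm1 was at 6.20, 2.09 and 0 CPM in CTR and at 0 in all VPA libraries. Its bound was 1.55-fold, from a CTR mean that includes a library at 0. Mybl2, which encodes B-MYB, overlapped at 1.46, 9.43 and 2.87 CPM in CTR and 3.30, 0.322, 3.57 and 4.13 CPM in VPA.

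**Figure D5:**
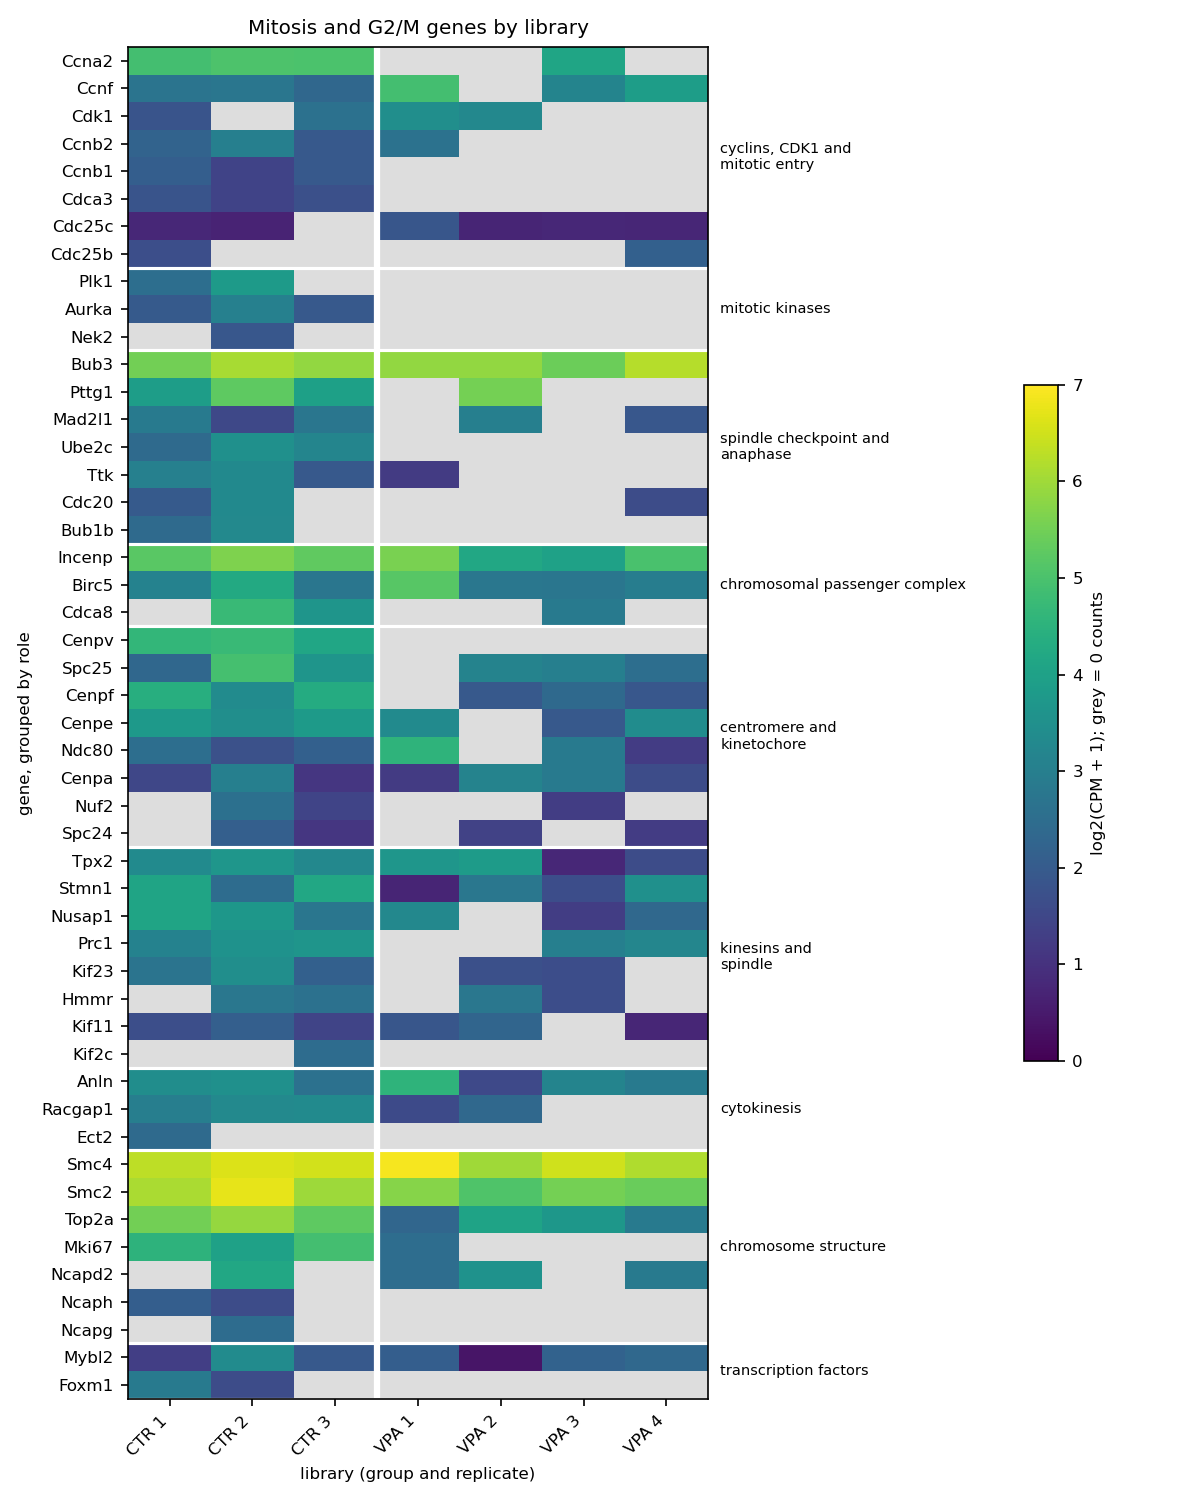
Log2(CPM + 1) of the 49 mitosis and G2/M genes with a count (y axis, grouped by role) in each library (x axis), with 0 counts in grey. Grey fills more of the VPA columns, in which 23 to 25 members had a count, than of the CTR columns with 38 to 45.

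Among these results, VPA replicate 1, whose slice culture number (73) no CTR library shares, stood nearest to CTR in its sum, and Birc5, Ccnf, Incenp, Anln and Ndc80 were among the genes highest there within VPA. Without that library, the ratio of the summed CPM was 0.493, and Mki67 was at 0 in all remaining VPA libraries. The counting program and its use of strand are not given in the sources used here. Of the members, 20 overlap a gene on the other strand, among them Top2a, Smc2, Mki67, Cenpf, Ube2c and Ccna2, and 13 overlap a gene on the same strand, so their counts are uncertain to that extent. Cenpv, Cenpe, Racgap1, Kif23, Ttk, Aurka, Ccnb1 and Cdca3 overlap none.

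Other mitosis genes, 117 in 5 lists from general knowledge, were set beside the members. Of these, 104 had a count and 66 were tested, 44 with a negative (66.7%, against 54.2% of all genes tested) and 22 with a positive fitted fold change. Their median was −0.17 against −0.06 over all genes. In edgeR, 0 passed an adjusted p of 0.05, and 5 were lower and 0 higher at an unadjusted p under 0.05. The 5 are 7.58% of those tested, against 4.62% of all genes. DESeq2 gave 86 of the 117 an adjusted p and called 3 lower (Lin37, Aspm and Arhgap11a) and 0 higher, against 0.754% and 0.256% of all genes. Among the 96 with at least 10 counts, every VPA value was below every CTR value for 18 (18.8%, against 7.89% of all genes) and above for 0 (2.29%). The anaphase-promoting complex ranged from 635 to 720 CPM in CTR and from 445 to 591 CPM in VPA. Kinetochore, centromere and checkpoint genes summed to 413 to 522 and 293 to 383 CPM, and spindle, kinesin and cytokinesis genes to 224 to 271 and 162 to 197 CPM. Cohesin, condensin and separase genes summed to 1589 to 1772 and 1316 to 1499.8 CPM, and genes of entry and exit control to 1076 to 1147 and 862 to 960.4 CPM. The sums of each list did not overlap between the groups, but abundant genes weigh most in them. By gene, the entry and exit control list had 8 negative and 7 positive fold changes and a median of −0.02, and the anaphase-promoting complex 12 and 4 and a median of −0.36. The medians of the other lists were −0.16, −0.13 and −0.17 in the order above.

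The 5 genes with an unadjusted p under 0.05 were Lin37, Aspm, Smc1a, Anapc5 and Anapc11. Lin37, a subunit of MuvB, was at 12.4, 7.12 and 15.5 CPM in CTR and at 0 in all VPA libraries, at least 6.53-fold lower, with an adjusted p of 0.295 in edgeR and 0.00200 in DESeq2. Aspm, a spindle pole protein, was at 6.20, 12.6 and 6.31 CPM in CTR and at 0 in VPA, at least 4.67-fold lower, with an adjusted p of 0.351 in edgeR and 0.0219 in DESeq2. Arhgap11a, which did not pass edgeR's filter, was at 7.29, 8.38 and 5.16 CPM in CTR and at 0 in VPA, with an adjusted p of 0.0489 in DESeq2. Smc1a, an ATPase of cohesin, which holds sister chromatids together, was at 248, 247 and 291 CPM in CTR and 150, 199, 150 and 183 CPM in VPA. It had a log2 fold change of −0.55 (SE 0.153), with an adjusted p of 0.389 in edgeR. Anapc5 and Anapc11, subunits of the anaphase-promoting complex, had log2 fold changes of −0.75 and −0.52 with adjusted p of 0.466 and 0.575 in edgeR.

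Markers of the cell types in the slice were read beside these sums. Hepatocyte markers summed to 3403 to 8737 CPM in CTR and 2245 to 8203 CPM in VPA, mostly from Alb, Apoa1 and Serpina1a, and 7 of the 10 tested had a positive fold change. Asgr1, Cps1, Cyp2e1 and Tat were each at 0 in at least 1 library, Asgr1 in all but CTR replicate 2 and VPA replicate 4. Stellate cell and myofibroblast markers moved with the mitosis genes, at 1679 to 2940 CPM in CTR and 897 to 1080 CPM in VPA. All 12 of 12 had a negative fold change, and Col1a1, Col1a2 and Col3a1 had an unadjusted p under 0.05 in edgeR, none with an adjusted p under that threshold. In DESeq2 the adjusted p was 4.4e-07 for Col1a1, 0.000539 for Col1a2 and 0.0613 for Col3a1, and 4 of the 12 markers (these 3 and Lox) lay lower in VPA without overlap. No marker of that list was at 0 in a whole group, and its part in the result on the mitosis genes was not tested. Liver endothelium markers summed to 227 to 249 and 69.9 to 265 CPM, and 4 of the 6 tested had a negative fold change. Cdh5 was at 74, 69.3 and 79.7 CPM in CTR and 0, 0, 26.4 and 24.1 CPM in VPA, without overlap and with an adjusted p of 0.718 in edgeR, while Clec4g was at 0 in CTR. The part of Cdh5 in the result on the mitosis genes was not tested. Macrophage markers summed to 152 to 221 and 180 to 298 CPM, with Adgre1 and Marco at 0 in every library, Vsig4 at 0 in VPA and Timd4 at 0 in CTR. Cholangiocyte markers summed to 284 to 642 and 251 to 660 CPM, with Krt19 at 0 in CTR. Markers of T, B and NK cells and of erythroid cells stayed at or under 6.60 CPM, and those of mesothelial cells at or under 19.8 CPM, in every library. Of the mesothelial markers, Msln, Upk3b and Lrrn4 were at 0 in VPA.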

How the data were processed

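The authors made 3′ end libraries (QuantSeq FWD) from total RNA of the slices and mapped single-end reads to GRCm38. The submitters' processing notes name STAR and StringTie. They deposited raw counts of reads per Ensembl gene as whole numbers, without normalization, in 1 table with 1 column a library. How reads were counted (the program, strand setting and multi-mapped reads) is not given in the sources used here. No unused column of per-sample values was present.

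Groups came from the sample labels. Symbols and coordinates came from GENCODE M21, and promoters from RefSeq. CPM was computed on the summed counts of all genes, without further scaling. The counts of all genes were fitted with edgeR 4.0.16 in R 4.3.3 (filterByExpr, TMM normalization, robust quasi-likelihood fit, condition as the only term), with Benjamini-Hochberg adjustment over the 10876 genes tested and a threshold of 0.05. DESeq2 1.42.0, other normalization and filters, a replicate block and leaving out each library were alternatives. Single CPM values were compared by a two-sided exact permutation test. The code was tested on simulated data before use. Fold bounds set the CTR mean against 3 counts a VPA library, averaged as CPM, without allowing for the spread of the CTR libraries.

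Values in every library were given for the 12 members of highest mean CPM, for members with an unadjusted edgeR p under 0.05, and for those with at least 10 counts that were at 0 in a whole group. The others were chosen for their role, after their values were seen. Of other mitosis genes, those with an unadjusted p under 0.05 were named. The members, lists and rules were chosen with earlier results of these data known.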

Additional observations from a re-analysis of the deposited data

Results flagged for a closer look

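In 15 sets of 4 VPA values examined, 5 had a library far from the other 3 by Dixon's criterion. Chance marks about 1 in 20 sets of continuous values, but this rate does not hold for Pttg1, Ccna2 and Mki67, in which 3 libraries at 0 put any single count far from the rest. The genes also share their libraries, so the 5 were not compared with chance. The summed CPM of the members was 458 in VPA replicate 1, against 298 to 323 in the others. Birc5 was at 35.6 CPM in VPA replicate 1, against 5.71 to 6.88 CPM, and Mki67 at 4.62 CPM in the same library, against 0 in the others. Pttg1 was at 45.1 CPM in VPA replicate 2 and Ccna2 at 16.4 CPM in VPA replicate 3, both against 0 in the other 3 libraries.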

How the results depend on the processing

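The number of members called with an adjusted p under 0.05 was 0 in edgeR and in each of its other normalization, filter, dispersion, replicate block and leave-one-out fits, 3 in DESeq2, and 5 or 2 at an unadjusted p under 0.05 or 0.01. At an unadjusted p under 0.05, 4 to 6 of 21 to 31 members tested were lower with 1 library left out. Without the filter 14 of 49 were lower, and 8 of 29 with a filter of at least 70 counts. The replicate blocks by slice culture and by replicate number gave 4 and 3 of 23, and 1 (Ccnf) was higher without VPA replicate 2. The share of all genes at that threshold is not given for these fits, so these counts cannot be set against it. Over all genes, 1 was called in edgeR, 154 in DESeq2, 10 without the filter, 0 with either replicate block, 0 to 2 when 1 library was left out, and 900 or 257 at an unadjusted p under 0.05 or 0.01. The median log2 fold change of the members tested, −1.08, was −1.68 in DESeq2, −1.79 without the filter, −1.52 with a replicate block by slice culture number, −2.22 with one by replicate number, and −1.20 to −0.57 when 1 library was left out. Which members are tested differs between these fits. Each replicate block also gives the VPA library whose number no CTR library shares a term of its own, so that library leaves the comparison. Deviations from the group means correlated at 0.0256 to 0.107 between libraries with the same slice culture number, not over 0.1 in every pair. Between those with the same replicate number they correlated at −0.05 to 0.107, so neither number was used as pairing in the main fit. Low correlations do not show that the libraries are unpaired. What the slice culture number marks is not given in the labels. The 14 members without overlap became 13 with TMM scaling and 14 to 20 with 1 library left out. With fewer libraries the groups of any gene separate more easily. The share over all genes is not given for these settings, so a rise cannot be read as a result on the members. The ratio of the sums, 0.550, was 0.578 with TMM scaling, 0.493 to 0.628 with 1 library left out and 0.395 without Smc4, Smc2 and Bub3, a choice made after seeing the data. Of 317 alternative values for single members, 315 stayed on their side of the threshold and 2 passed it, Cenpv and Top2a in DESeq2. The sign differed in at least 1 alternative for Anln, Birc5, Bub3, Ccnf, Ncapd2 and Smc4. Of the 53 members, 30 were too low to be tested, and a count of 0 leaves room for up to 0.628 to 2.14 CPM by counting error alone.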
